A study of Mus musculus with 2 samples.

Results

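The BAFF and APRIL receptor system is a small signalling network of the tumour necrosis factor family, described here through 5 genes of the 32285 in the deposited feature lists, chosen by gene symbol. They are the ligands Tnfsf13b (BAFF) and Tnfsf13 (APRIL) and the receptors Tnfrsf13b (TACI), Tnfrsf13c (BAFF receptor) and Tnfrsf17 (BCMA). All 5 had a row in both lists. The data are droplet single-cell RNA libraries of CD45+ cells, the leukocyte fraction, sorted from spleen. The Glutoborin library came from infected wild-type mice. The labels describe an infection with 10000 iRBCs (an abbreviation that they do not spell out), given into the peritoneum. Glutoborin followed on days 2 and 4, and spleens were taken on day 5. The Vehicle library came from wild-type mice infected and handled in the same way that received Vehicle on those days. The labels give neither age, sex nor the number of mice behind each library, and describe Glutoborin no further. The comparison asks where ligands and receptors of this system are transcribed in these spleens, and whether their levels differ between the treated and the vehicle animals.

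BAFF and APRIL are made as membrane proteins, mostly by myeloid and stromal cells, and are released by furin-type proteases. BAFF binds all 3 receptors and is the survival signal that lets newly made B cells mature in the spleen, while APRIL binds TACI and BCMA and supports plasma cells. The BAFF receptor frees the kinase Map3k14 (NIK) from a complex that holds Traf3 and so starts the noncanonical NF-kB route through Nfkb2 and Relb. TACI and BCMA also use the canonical route.

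Each group is 1 library, so no test was possible and no p-value is given: a difference is described by its size, and its interval covers counting error alone and says nothing of the spread between animals. UMIs (unique molecular identifiers, each standing for 1 captured RNA molecule) were summed over the cells of a class and given as counts per 1000000 UMIs of that class (CPM). Counts are of transcript 3′ ends and do not grow with transcript length. All intervals are exact 95% intervals. The deposited libraries held 9646 barcodes and 56862506 UMIs (Glutoborin) and 8204 barcodes and 48526451 UMIs (Vehicle), and 8906 and 6493 cells were kept, with medians of 4811 and 5688 UMIs. The filter at 10% mitochondrial UMIs met 4.07% of Glutoborin barcodes and 18.5% of Vehicle barcodes, and 24 barcode sequences occurred in both libraries. Cells were named from marker genes, with the 5 genes kept out of the clustering. The classes that carry most of the signal had their markers at high frequency: the 6 B cell markers were each detected in at least 69.9% of Glutoborin and 73.5% of Vehicle B cells, and the 9 monocyte markers in at least 66.1% and 56.1% of monocytes.

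The promoters of the B cell receptors of BAFF are shown first, because the levels of Tnfrsf13c and Tnfrsf13b differ most clearly between cell types. Both are the 250 bases before the transcript start from the RefSeq table on GRCm38.p6, read 5′ to 3′ on the gene's own strand, with capitals for a match to a searched motif.
Tnfrsf13c, chr15:82224381-82224630, minus strand: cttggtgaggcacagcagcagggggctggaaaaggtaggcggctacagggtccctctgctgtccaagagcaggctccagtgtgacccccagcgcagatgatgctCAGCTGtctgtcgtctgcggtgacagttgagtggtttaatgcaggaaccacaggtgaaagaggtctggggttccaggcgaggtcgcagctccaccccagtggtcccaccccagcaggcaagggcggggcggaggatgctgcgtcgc
Tnfrsf13b, chr11:61126505-61126754, plus strand: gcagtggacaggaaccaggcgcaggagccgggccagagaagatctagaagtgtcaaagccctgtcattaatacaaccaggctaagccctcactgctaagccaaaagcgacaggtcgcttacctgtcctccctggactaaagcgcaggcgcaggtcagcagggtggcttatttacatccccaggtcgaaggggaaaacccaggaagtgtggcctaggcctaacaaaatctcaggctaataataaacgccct
Tnfsf13b, chr8:10006603-10006632, plus strand, the last 30 bases before the second RefSeq start: atcttacaaaaactGAAAGTGAAAtgcgga

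The capitals in the Tnfrsf13c promoter are the E-box CAGCTG, which 16.3% of the 32851 promoter windows in the table hold. The Tnfrsf13b window held none of the searched motifs. The capitals in the Tnfsf13b stretch, at -16 to -7 from that start, match the interferon-stimulated response element core (GAAA, any 2 bases, GAAA), held by 3.44% of windows, and a match on the opposite strand lay at -101 to -92 in the Tnfrsf17 window. Of the other motifs searched on both strands in the 300 bases from 250 before to 50 after each start, none matched any of the 5 genes. These were the interferon-gamma activated site TTCNNNGAA (in 8.30% of all windows), an EBF motif (TCCC, any 2 bases, GGGA, in 0.904%), the Ets core GAGGAAGT (3.20%) and an NF-kB core (0.155%). A match is a string of letters and was not tested as a binding site, and no match says only that these letters are absent from the window.

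The ligands came from few cells. Tnfsf13, the APRIL gene (ENSMUSG00000089669, GRCm38 chromosome 11, 69682846 to 69685784, minus strand), had 357 UMIs in kept Glutoborin cells and 314 in kept Vehicle cells. Monocytes, blood phagocytes that enter inflamed tissue, were its main named source: 156 of the 357 UMIs (43.7%, 38.5 to 49.0%) lay in 127 Glutoborin monocytes and 188 of the 314 (59.9%, 54.2 to 65.3%) in 187 Vehicle monocytes. Monocytes were 1.43% of the kept Glutoborin cells and 2.88% of the kept Vehicle cells, so the share of the transcript that they held differed alongside their number.

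Scaled to the UMIs of the class, Tnfsf13 differed little in monocytes. Its level was 98.3 CPM (83.5 to 115) in Glutoborin and 88.7 CPM (76.5 to 102) in Vehicle monocytes. The log2 ratio of Glutoborin over Vehicle was 0.15, with an interval of -0.17 to 0.46 that includes 0. Without the 10 cells of each library with the most Tnfsf13 it was -0.00027. Both monocyte clusters held the gene: the level was 92.7 CPM in Glutoborin and 73.7 CPM in Vehicle in the cluster led by Fn1 and F13a1, and 106 and 105 CPM in the cluster led by Cfb and Cxcl10. Single cells held up to 9 Tnfsf13 UMIs in Glutoborin and up to 7 in Vehicle, and 51 of 127 and 89 of 187 monocytes had none.

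Other phagocytes carried Tnfsf13 at similar levels on fewer cells. Nonclassical monocytes, which patrol vessel walls, stood at 117 CPM (78.6 to 166) in Glutoborin and 72.5 CPM (44.9 to 111) in Vehicle, on 30 and 21 UMIs. Red pulp macrophages, which take up old erythrocytes, stood at 88.7 CPM (45.8 to 155) and 71.6 CPM (34.3 to 132) on 12 and 10 UMIs. Their intervals overlap those of the monocytes in both libraries, so no order among these 3 classes can be read. B cells were close to empty of the transcript, with 6 UMIs in 5158 Glutoborin and 8 in 3559 Vehicle cells (0.231 and 0.395 CPM).

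NK cells, cytotoxic innate lymphocytes, were the second named source of APRIL transcript. Cells in unnamed clusters held more of it, with 64 UMIs (17.9%) in Glutoborin and 50 UMIs (15.9%) in Vehicle. Among named classes, only NK cells and monocytes had the cells and UMIs needed for a ligand ratio, and of these only NK cells passed 1.5-fold. Tnfsf13 had 59 UMIs in 353 Glutoborin NK cells and 32 in 253 Vehicle NK cells, or 21.0 CPM (16.0 to 27.1) and 12.96 CPM (8.87 to 18.3). The log2 ratio was 0.70 (0.053 to 1.37), and 6.66% of the 7633 genes measured in NK cells were at least 1.5-fold higher. Nearly all of it lay in 1 cluster (57 and 31 UMIs), and the mean per cell, which weights each cell alike, gave a log2 ratio of 0.51, under the 1.5-fold mark.

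Phagocyte markers were measured in the NK cells. The 11 red pulp macrophage markers moved with Tnfsf13, at 40.3 CPM in Glutoborin (113 UMIs, none of the 11 at 0) and 17.4 CPM in Vehicle (43 UMIs, Spic at 0). The 9 monocyte markers stood at 640.8 and 542 CPM and the 7 nonclassical monocyte markers at 289 and 288 CPM. Ly6c2 alone gave 235 and 188 CPM of the monocyte marker sum. The 266 Glutoborin NK cells without a UMI of Lyz2, Csf1r or C1qa held Tnfsf13 at 21.1 CPM, and the 127 such Vehicle cells at 15.6 CPM. All NK cells together held 59 Tnfsf13 beside 118 marker UMIs in Glutoborin and 32 beside 194 in Vehicle, whereas monocytes held 156 beside 41462 and 188 beside 47142. In NK cells Lyz2, Csf1r and C1qa together went the other way from Tnfsf13, with fewer UMIs in 353 Glutoborin cells than in 253 Vehicle cells. The part of phagocyte RNA in the NK cell values was not tested.

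Reads of Tnfsf13 share their locus with 3 other genes. Tnfsf12, which encodes TWEAK, a relative of APRIL, lies directly upstream on the same strand (chromosome 11, 69686250 to 69695849). The read-through gene Tnfsfm13 (69682577 to 69696098) joins them and runs past the annotated 3′ end of Tnfsf13. It has no row in the feature lists, and neither labels nor files say how its reads were counted. Tnfsf13os overlaps on the opposite strand. Neither labels nor files state the strand setting of the counting. Tnfsf12 stood at 92.6 CPM in Glutoborin and 72.9 CPM in Vehicle NK cells (log2 ratio 0.34, 0.065 to 0.63), above Tnfsf13 in the same cells, and at 68.0 and 57.6 CPM in monocytes, below Tnfsf13. The antisense gene had 0 and 1 UMIs in NK cells and 17 and 17 in monocytes.

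Type 2 conventional dendritic cells, which present antigen to CD4 T cells, had 18 Tnfsf13 UMIs in 106 Glutoborin cells and 1 UMI in 75 Vehicle cells, 17.8 CPM (10.5 to 28.1) and 1.41 CPM (0.0356 to 7.84). The Vehicle group is under the 100 cells set for a comparison, so no ratio was drawn. Some markers of other cells moved with it. The 11 red pulp macrophage markers stood at 531 and 152 CPM with none at 0. Csf1r of monocytes and macrophages stood at 115 and 53.5 CPM, and Siglech of plasmacytoid dendritic cells at 37.5 and 7.04 CPM. Others did not: the monocyte marker Ly6c2 was level, at 683 and 695 CPM. The B cell markers Cd79a, at 76.9 and 103 CPM, and Ms4a1, at 48.3 and 64.8 CPM, were lower in Glutoborin. The part of other cells in the Tnfsf13 counts was not tested.

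Tnfsf13b, the BAFF gene (ENSMUSG00000031497, GRCm38 chromosome 8, 10006467 to 10039072, plus strand), was sparse, with 52 UMIs among all kept Glutoborin cells and 36 among kept Vehicle cells. Monocytes held 20 (38.5%) and 17 (47.2%) of them, at 12.6 CPM (7.70 to 19.5) and 8.02 CPM (4.67 to 12.8). Neutrophils stood at 37.0 CPM (14.9 to 76.2) on 7 UMIs in Glutoborin and at 17.9 CPM (0.452 to 99.5) on 1 UMI in Vehicle. No class reached the 50 UMIs needed for a ratio, and a difference in Tnfsf13b between the libraries was not detectable at this depth. The stromal cells that make much of the BAFF in a spleen are outside the CD45+ sort. In monocytes, cells with both ligands numbered 11 of 127 in Glutoborin and 7 of 187 in Vehicle.

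**Figure D1:**
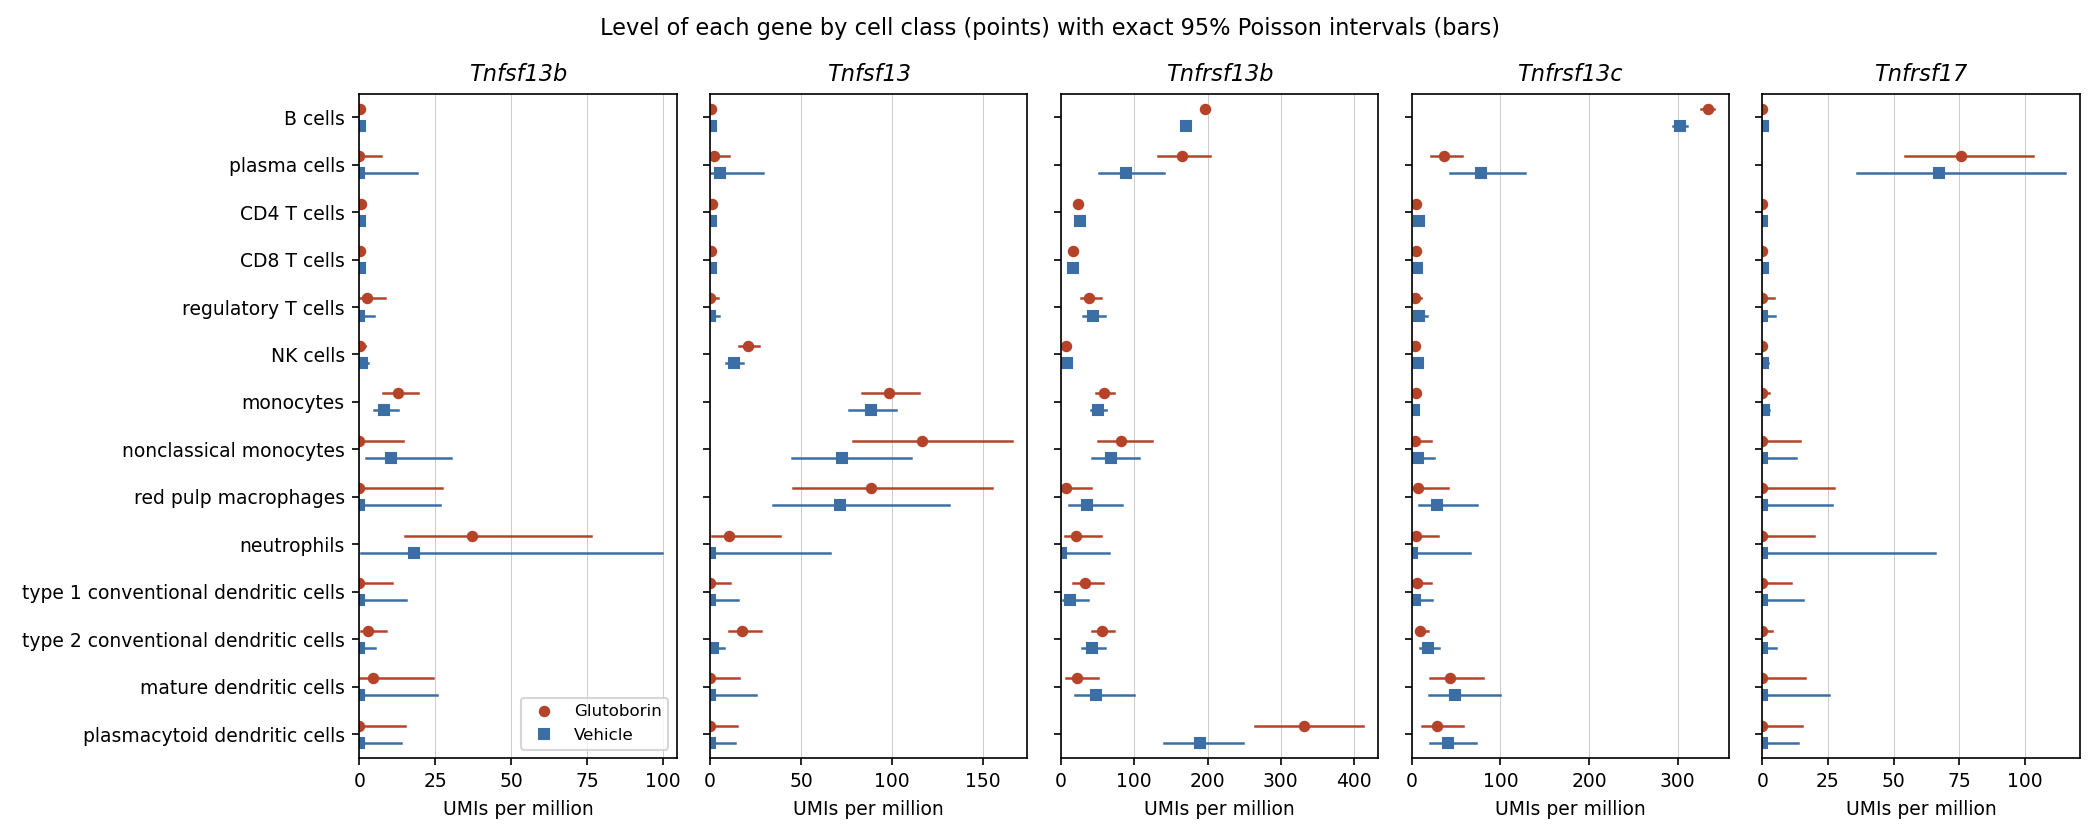
Level of each of the 5 genes in CPM (horizontal axes, linear, a scale for each gene) in 14 cell classes, with exact 95% Poisson intervals as bars. Glutoborin is the red circle above and Vehicle the blue square below. Tnfrsf13c stands apart in B cells, Tnfrsf17 in plasma cells and Tnfsf13 in monocytes and macrophages, while Tnfrsf13b is spread over B cells, plasmacytoid dendritic cells, plasma cells and monocytes.

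Tnfrsf13c, the BAFF receptor gene (ENSMUSG00000068105, GRCm38 chromosome 15, 82221743 to 82224369, minus strand), was a B cell transcript in both libraries. B cells held 8673 of 8948 Glutoborin UMIs (96.9%, 96.5 to 97.3%) and 6133 of 6436 Vehicle UMIs (95.3%, 94.7 to 95.8%), although they held 49.5% and 45.9% of all UMIs. The level in B cells was 334 CPM (327 to 341) in Glutoborin and 303 CPM (295 to 310.2) in Vehicle. The log2 ratio was 0.14 (0.094 to 0.19), an interval above 0 and far inside 1.5-fold, which 2.66% of 10708 measured genes exceeded on the higher side in B cells.

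Outside B cells Tnfrsf13c was low. It stood at 5.41 and 8.73 CPM in Glutoborin and Vehicle CD4 T cells, at 4.54 and 5.71 CPM in CD8 T cells and at 4.41 and 2.36 CPM in monocytes. It was higher, on few cells, in mature dendritic cells, at 43.7 CPM (10 UMIs) and 48.4 CPM (7 UMIs), and in plasmacytoid dendritic cells, at 28.4 CPM (7 UMIs) and 40.9 CPM (11 UMIs). Measured against 6 B cell markers (Cd79a, Cd79b and Ms4a1 among them), it had 37.96 (Glutoborin) and 37.1 (Vehicle) UMIs per 1000 marker UMIs in B cells, 43.9 and 43.7 in CD4 T cells and 39.6 and 35.7 in CD8 T cells. The proportion was 23.4 and 28.0 in NK cells, 18.5 and 45.0 in other T cells and 44.3 and 17.2 in monocytes, the last on 7 and 5 Tnfrsf13c UMIs. It was 32.4 and 49.6 in mature dendritic cells and 60.3 and 39.7 in plasmacytoid dendritic cells, around the B cell value. The 6 markers stood at 1350 and 975 CPM in mature and at 470 and 1029 CPM in plasmacytoid dendritic cells. How much of these counts is B cell RNA was not tested. The log2 ratio in CD4 T cells was -0.69 (-1.41 to 0.014) on 31 and 42 UMIs, past 1.5-fold on the lower side beside 2.62% of 8614 measured genes. The 6 markers themselves stood there at 123 CPM in Glutoborin and 200.04 CPM in Vehicle, so a difference in the receptor and in B cell background cannot be told apart.

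Tnfrsf13b, the TACI gene (ENSMUSG00000010142, GRCm38 chromosome 11, 61126755 to 61149372, plus strand), was also mainly in B cells but reached further. B cells held 5117 of 5981 UMIs in Glutoborin (85.6%, 84.6 to 86.4%) and 3452 of 4130 in Vehicle (83.6%, 82.4 to 84.7%). The level in B cells was 197 CPM (192 to 202) in Glutoborin and 170.3 CPM (165 to 176) in Vehicle. The log2 ratio was 0.21 (0.15 to 0.27), again inside 1.5-fold. After thinning each cell to 2000 UMIs, 31.1% (29.8 to 32.4%) of Glutoborin and 28.8% (27.3 to 30.3%) of Vehicle B cells had a Tnfrsf13b UMI, and 48.2% (46.8 to 49.6%) and 44.0% (42.3 to 45.6%) had a Tnfrsf13c UMI. At full depth, with medians of 4120 and 4754 UMIs, these shares were 56.1% and 54.8% for Tnfrsf13b and 72.9% and 72.2% for Tnfrsf13c. NK cells, which should lack both genes, had 1.98% and 1.21% for Tnfrsf13b and 0.283% and 0.806% for Tnfrsf13c when thinned. At full depth, with medians of 6671 and 8796 UMIs, these NK shares were 4.82% and 7.11% for Tnfrsf13b and 3.12% and 6.32% for Tnfrsf13c.

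The densest Tnfrsf13b outside the B lineage was in plasmacytoid dendritic cells, the main makers of type I interferon. It stood at 332 CPM (264 to 412) on 82 UMIs in 25 Glutoborin cells and at 189 CPM (141 to 249) on 51 UMIs in 25 Vehicle cells. The intervals do not overlap, but 25 cells a library is under the limit for a comparison. A Tnfrsf13b UMI was present in 22 of 25 Glutoborin and 20 of 25 Vehicle cells. The 6 B cell markers stood in these cells at 469.9 and 1029 CPM. In the 9 Glutoborin and 5 Vehicle cells without a UMI of a 4-gene B cell panel, Tnfrsf13b stood at 262.6 and 280.9 CPM. In the other 16 and 20 cells it stood at 373 and 167 CPM. So few cells cannot show whether the difference holds without B cell transcripts, and the part of B cell RNA was not tested.

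Myeloid and T cells carried Tnfrsf13b at a lower level in both libraries. Nonclassical monocytes stood at 81.6 CPM (50.5 to 125) in Glutoborin and 69.0 CPM (42.2 to 107) in Vehicle, and monocytes at 58.6 CPM (47.3 to 71.8) and 50.5 CPM (41.4 to 61.0), with the log2 ratio 0.21 (-0.20 to 0.63). Type 2 conventional dendritic cells stood at 56.2 and 42.2 CPM. Regulatory T cells, which restrain immune responses, stood at 38.9 and 43.1 CPM, CD4 T cells at 23.9 and 26.4 CPM, CD8 T cells at 16.6 and 17.1 CPM and NK cells at 7.48 and 7.70 CPM. The intervals of monocytes and type 2 dendritic cells overlap, as do those of both monocyte classes, so their order cannot be read, whereas monocytes stood above CD4 T cells and CD4 T cells above NK cells beyond their intervals in each library. Within CD4 T cells the cluster led by Maf and Tbc1d4 stood at 37.4 and 44.1 CPM, near the regulatory T cells.

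Tnfrsf13b stood in another proportion to the B cell markers outside B cells. Per 1000 UMIs of the 6 B cell markers, Tnfrsf13b had 22.4 UMIs in Glutoborin and 20.9 in Vehicle B cells, but 589 and 368 in monocytes, 707 and 184 in plasmacytoid dendritic cells, 284 and 202 in regulatory T cells, 194 and 132 in CD4 T cells and 145 and 107 in CD8 T cells. Of the classes large enough to compare, NK cells were nearest to B cells, at 44.7 and 31.2. The ratio of Tnfrsf13b to Tnfrsf13c UMIs was 0.59 (0.57 to 0.61) in Glutoborin and 0.56 (0.54 to 0.59) in Vehicle B cells, and 13.3 (6.20 to 34.0) and 21.4 (8.89 to 67.2) in monocytes.

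**Figure D2:**
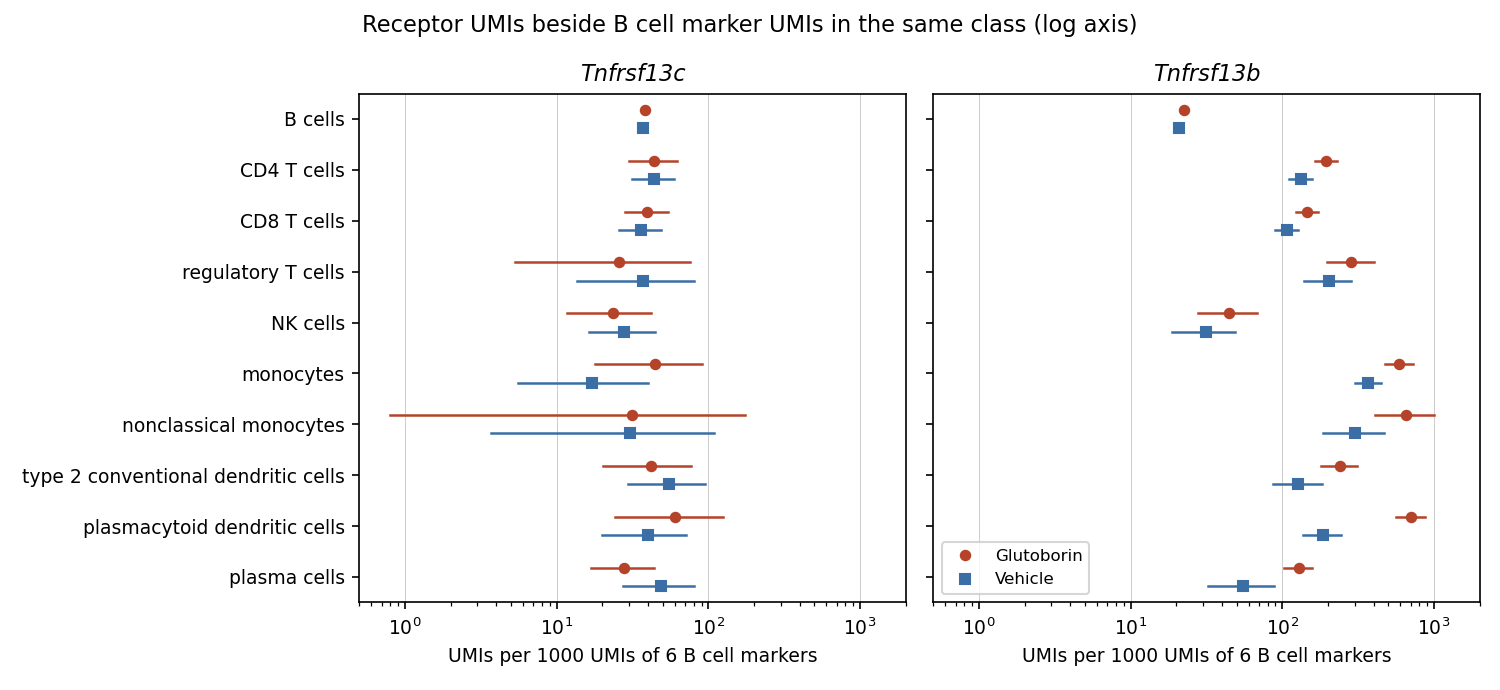
UMIs of Tnfrsf13c (left) and Tnfrsf13b (right) per 1000 UMIs of 6 B cell markers in the same class and library, on a log axis, with bars for the exact 95% Poisson interval of the receptor count. Glutoborin is the red circle above, Vehicle the blue square below. Tnfrsf13c lies on both sides of its value in B cells (37.96 and 37.1), whereas Tnfrsf13b lies far above its B cell value (22.4 and 20.9) in T cells, monocytes and plasmacytoid dendritic cells.

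The receptors varied more among B cell subsets than between the libraries. The B-1-like subset was named where at least 3 of its markers were raised over the other B cells, and the marginal zone-like subset by a higher minimum. Clusters with Vpreb3 and Spib, or Srm and Ncl, among their leading genes are called led by Vpreb3 or Srm. The cluster with Mki67 and other cell cycle genes among them is called led by Mki67. These names were given whether or not the clusters also held follicular markers. The remaining clusters were named follicular-like by detection of follicular markers, without a rise over other B cells. B cells led by Vpreb3, a surrogate light chain gene that falls as B cells mature, had the highest level of both receptors: Tnfrsf13c stood at 588 CPM (554 to 624) in Glutoborin and 568 CPM (527 to 612) in Vehicle, and Tnfrsf13b at 303 CPM (279 to 329) and 289 CPM (259.8 to 321). Their log2 ratios were 0.049 (-0.089 to 0.19) and 0.067 (-0.13 to 0.26), so neither receptor was separated between the libraries in those cells.

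Follicular-like B cells, the recirculating majority, had Tnfrsf13c at 354 CPM in Glutoborin and 321 CPM in Vehicle, with a log2 ratio of 0.14 (0.082 to 0.20), and Tnfrsf13b at 198 and 173 CPM, with a log2 ratio of 0.20 (0.12 to 0.28). Marginal zone-like B cells, which answer blood-borne antigen, had less Tnfrsf13c, at 238 and 212 CPM (log2 ratio 0.17, 0.0054 to 0.33), and Tnfrsf13b at 177 and 169.7 CPM (log2 ratio 0.062, -0.12 to 0.25). Cells led by Srm, a polyamine synthesis gene, had the lowest Tnfrsf13b, at 129 and 110.4 CPM, beside Tnfrsf13c at 256 and 253 CPM. The few cells led by Mki67, a proliferation marker, had Tnfrsf13c at 189 and 183 CPM and Tnfrsf13b at 166 and 167 CPM.

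B-1-like B cells, the innate-like subset that secretes natural antibody, were the only compared subset with log2 ratios of opposite sign for the receptors. Tnfrsf13b stood at 234 CPM (208 to 263) in Glutoborin and 179 CPM (156 to 205) in Vehicle, with the log2 ratio 0.39 (0.13 to 0.65). Tnfrsf13c stood at 187 CPM (164 to 212) in Glutoborin and 209.6 CPM (184 to 238) in Vehicle, with the log2 ratio -0.17 (-0.43 to 0.099). The ratio of Tnfrsf13b to Tnfrsf13c UMIs was 1.25 (1.05 to 1.49) in Glutoborin and 0.86 (0.71 to 1.03) in Vehicle, against 0.56 and 0.54 in follicular-like, 0.74 and 0.80 in marginal zone-like, 0.51 and 0.51 in Vpreb3-led, 0.50 and 0.44 in Srm-led and 0.88 and 0.91 in Mki67-led cells. In Vehicle the Mki67-led value was thus above that of B-1-like cells, with overlapping intervals. These values come from 154 and 134 cells, and none passed 1.5-fold.

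The B cell class was not made up alike in the libraries. A follicular-like cluster led by Emp3 and Itgb7 held 355 Glutoborin and 57 Vehicle cells, with Tnfrsf13c at 486 and 436 CPM, and a cluster led by Pxdc1 and Ccr6 held 687 and 209 cells, at 370 and 351 CPM. A cluster led by Socs1 and Socs3 held 183 and 543 cells, at 274 and 289 CPM, and a cluster led by Ifit3 held 61 and 213 cells, at 339 and 265 CPM. Across the 19 B cell clusters Tnfrsf13c ran from 187 to 588 CPM in Glutoborin and from 183 to 568 CPM in Vehicle, and Tnfrsf13b from 129 to 303 and from 110 to 289 CPM. How far the unequal make-up accounts for the log2 ratios of the whole class was not tested. Cells taken by marker UMIs in place of clusters gave similar levels: Tnfrsf13c was at 344 and 308 CPM where Fcer2a was present without Cd93 or Cd1d1, and at 247 and 221 CPM where Cr2 and Cd1d1 were present without Fcer2a. Cells with Cd93, a marker of newly arrived B cells, had Tnfrsf13b at 235 CPM (210.0 to 262) in Glutoborin and 197 CPM (166 to 232) in Vehicle and Tnfrsf13c at 315 and 334 CPM.

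**Figure D3:**
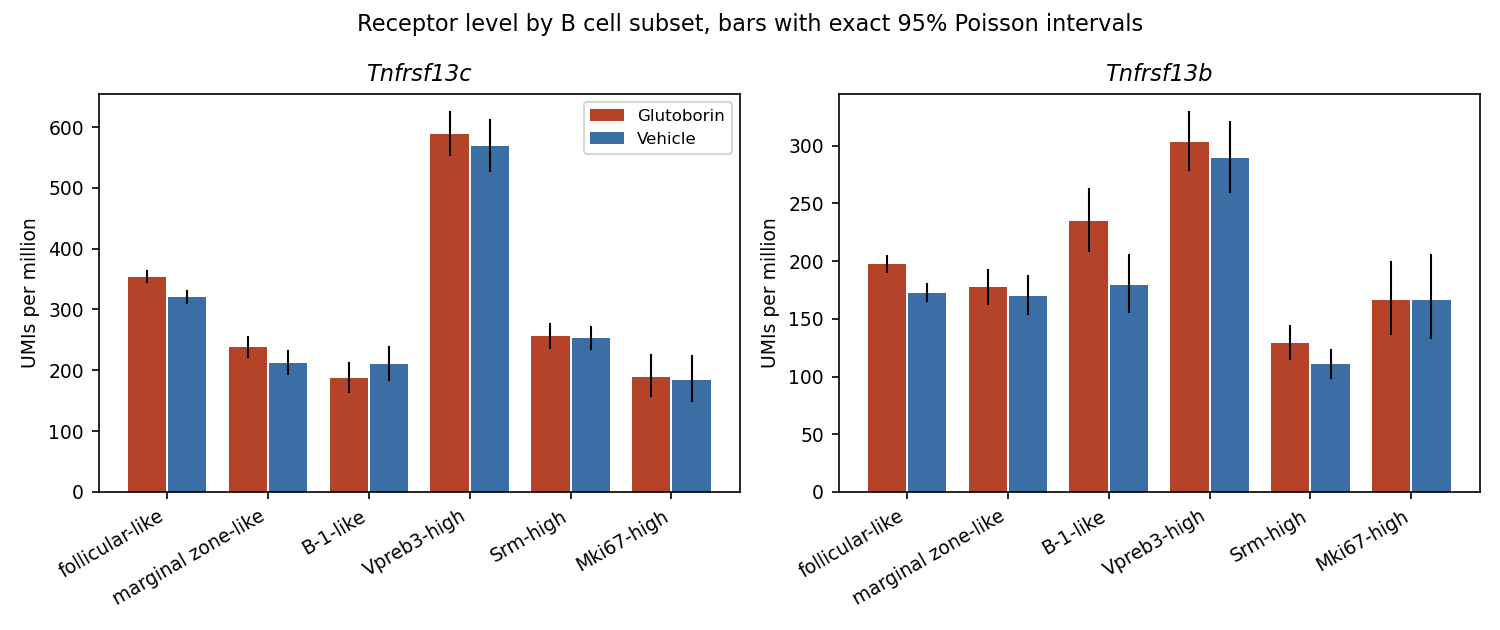
Level of Tnfrsf13c and Tnfrsf13b in CPM (vertical axes from 0) in 6 B cell subsets, with exact 95% Poisson intervals as black lines. Glutoborin is the left red bar and Vehicle the right blue bar of each pair. Vpreb3-led cells are highest for both receptors in both libraries, and B-1-like cells have the lower Tnfrsf13c bar but the higher Tnfrsf13b bar in Glutoborin.

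The receptors were found in the same B cells about as often as their separate frequencies give. In cells thinned to 2000 UMIs, 15.7% of Glutoborin and 13.4% of Vehicle B cells had both, beside 14.98% and 12.6% if detection were independent. Tnfrsf13b alone was seen in 15.4% and 15.3%, and Tnfrsf13c alone in 32.5% and 30.6%. The count of UMIs per B cell ran up to 16 and 14 for Tnfrsf13c and up to 14 and 11 for Tnfrsf13b.

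Tnfrsf17, the BCMA gene (ENSMUSG00000022496, GRCm38 chromosome 16, 11313812 to 11320074, plus strand), marked plasma cells, which secrete antibody and can bind APRIL through this receptor. Plasma cells held 40 of its 42 UMIs in Glutoborin and 13 of 18 in Vehicle, from 24 and 11 cells. The level was 75.9 CPM (54.2 to 103) in Glutoborin and 67.4 CPM (35.9 to 115) in Vehicle plasma cells, with overlapping intervals. B cells had 0 UMIs in 5158 Glutoborin cells, where 3 counts, the limit set for a count of 0, would be 0.115 CPM, and 2 UMIs in 3559 Vehicle cells. Plasma cells also held Tnfrsf13b, at 165 CPM (132 to 203) and 88.1 CPM (51.4 to 141), and Tnfrsf13c, at 36.0 CPM (21.7 to 56.3) and 77.8 CPM (43.5 to 128). Their Tnfrsf13c stood at 27.9 and 48.9 UMIs per 1000 B cell marker UMIs, near the proportion in B cells.

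**Figure D4:**
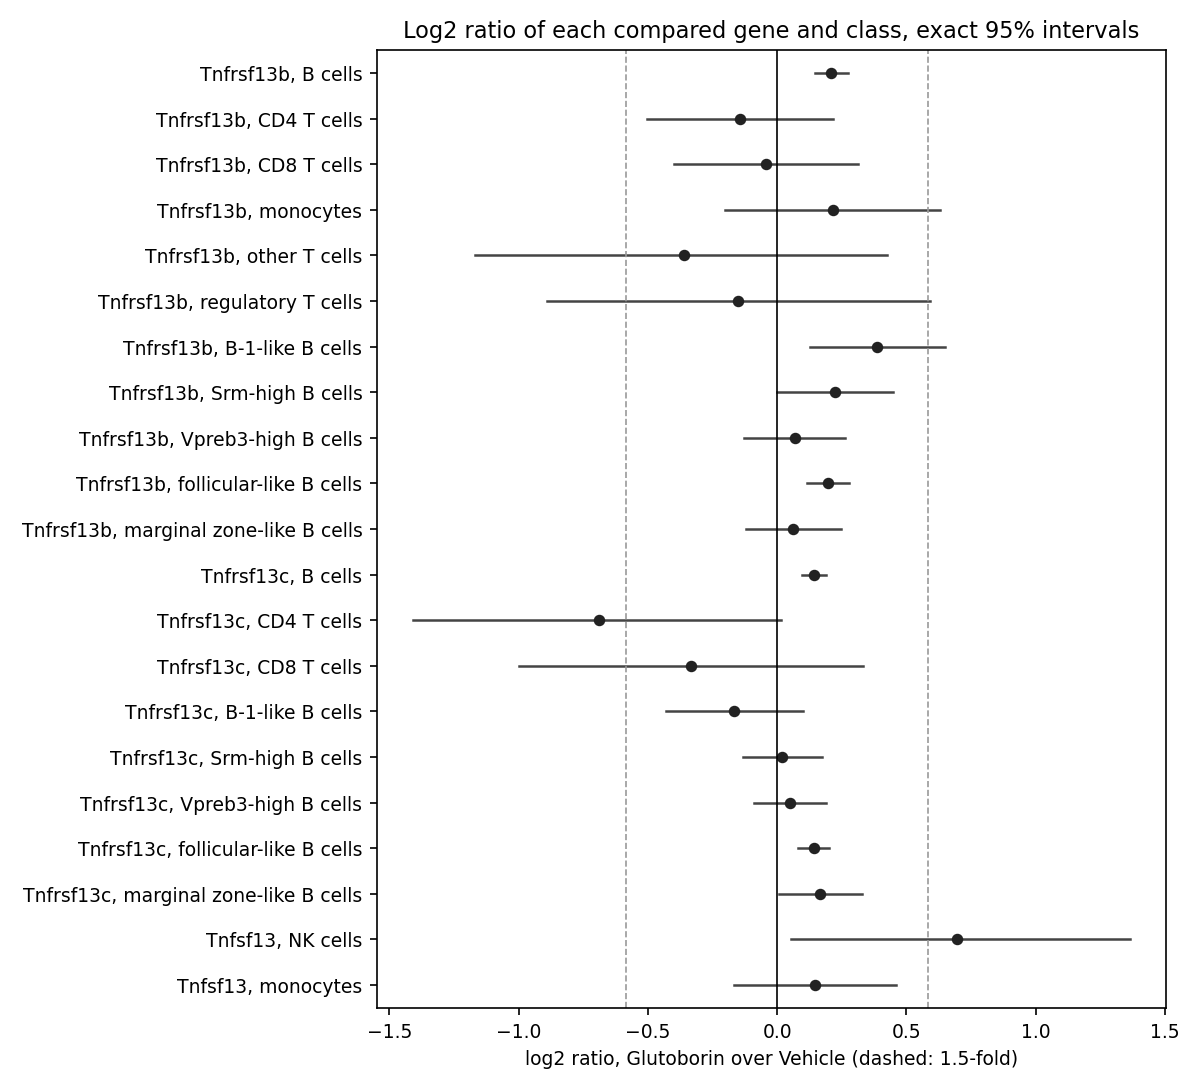
Log2 ratio of Glutoborin over Vehicle (horizontal axis) for each gene and named class or B cell subset, with exact 95% intervals as bars. Each has at least 100 cells in each library and 50 UMIs over both. Cells in unnamed clusters are not drawn. The dashed lines mark 1.5-fold. Tnfsf13 in NK cells lies past 1.5-fold on the higher side and Tnfrsf13c in CD4 T cells on the lower side, the second with an interval that includes 0, and all values in B cells and their subsets lie between the dashed lines.

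Across 28 profiles (14 classes in each library), the genes most like each member were as follows, by Pearson's correlation of log2(CPM + 10) among 10497 genes. Neutrophils and gamma-delta T cells were not among these classes, which needed at least 100000 UMIs in each library. The profiles share libraries and differ in depth, so the values are a description. Tnfsf13 was closest to Fcgr3 (0.99), an Fc receptor shared by NK cells and phagocytes, then to Klra2 (0.94) and Gstm1 (0.94). Tnfrsf13c was closest to Cd79a (0.97), Ms4a1 (0.97) and Cd79b (0.95), parts of the B cell surface. Tnfrsf13b was closest to Fcrla (0.81), an intracellular Fc receptor-like protein of B cells, and to A530032D15Rik (0.81). Tnfrsf17 was closest to Oosp1 (0.99) and to the plasma cell marker Sdc1 (0.99). Tnfsf13b was closest to the chemokine gene Cxcl2 (0.88), over profiles without the neutrophils in which its level was highest.

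Downstream of the receptors, B cells differed little. Of a list of 46 pathway genes, 45 had a row and 41 had at least 50 UMIs in B cells. Of these, 1 was at least 1.5-fold higher in Glutoborin and 0 lower, beside 2.66% and 3.18% of all 10708 measured genes, and the median log2 ratio was 0.051 beside 0.021 for all genes. The 1 gene was Bcl2l1, which encodes the survival protein Bcl-xL and is induced by BAFF, at 77 Glutoborin and 29 Vehicle UMIs (2.96 and 1.43 CPM), with the log2 ratio 1.05 (0.42 to 1.72). All 4 noncanonical genes lay between -0.15 and 0.18, with the kinase Map3k14 at 28.2 and 25.01 CPM, Nfkb2 at 104 and 95.1 CPM and Relb at 64.0 and 58.3 CPM. The 9 adaptor and ubiquitin ligase genes ran from -0.33 for Traf5 (83.7 and 105 CPM) to 0.29 for Otud7b (41.7 and 34.2 CPM), the deubiquitinase that spares Traf3. The 8 canonical NF-kB genes ran from -0.20 to 0.15, and the survival gene Mcl1 stood at 535 and 546 CPM.

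In monocytes 7 of 31 measured pathway genes were at least 1.5-fold lower in Glutoborin and 0 higher, beside 6.49% and 3.56% of 6424 measured genes, and the median log2 ratio was -0.30 beside -0.02 for all genes. Traf1, an adaptor of tumour necrosis factor receptors, had 19 Glutoborin and 103 Vehicle UMIs, a log2 ratio of -2.02 (-2.81 to -1.31). Tnfaip3, the NF-kB brake A20, was at -1.23 (-1.84 to -0.65), and the inhibitor Nfkbia at -0.70 (-0.86 to -0.55) on 504 and 1094 UMIs. Nfkb2 was at -0.65 (-1.08 to -0.24), the costimulatory receptor Cd40 at -1.05 (-1.50 to -0.62), and the survival genes Bcl2a1b and Bcl2a1d at -1.07 (-1.62 to -0.55) and -1.64 (-2.44 to -0.90). The last pair are near-identical copies, between which the counting could split reads. Map3k14 itself and the other noncanonical genes lay between -0.65 and -0.0025.

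Neutrophil transcripts were also lower in the Glutoborin monocyte class. The 10 neutrophil markers stood at 416 CPM in Glutoborin and 1359 CPM in Vehicle monocytes, with 57.6% and 90.0% of their UMIs in 10 cells. Without those 10 cells of each library the markers stood at 193 and 145 CPM, and each of the 7 genes was still at least 1.5-fold lower, from -0.60 for Nfkb2 to -1.69 for Traf1. Traf1 was also held by few cells: without the 10 cells of each library richest in it, 1 of its 19 Glutoborin UMIs and 23 of its 103 Vehicle UMIs were left. Monocytes were also taken from all kept cells by marker UMIs in place of clusters (153 and 168 cells). These cells had Lyz2 and any of Ly6c2, Csf1r or Ccr2, and no UMI of Cd79a, Cd3e, S100a8 or C1qa. Cells with the neutrophil marker S100a8 were thus left out. There the log2 ratio of Traf1 was -0.33, of Tnfaip3 -0.024 and of Bcl2a1d 0.070. Only Cd40 of the 7, at -0.69, was still past 1.5-fold.

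The other classes had few pathway genes past 1.5-fold. In NK cells 2 of 35 measured genes were higher and 2 lower, beside 6.66% and 5.61% of all measured genes. The lower ones were Nfkb2 at -1.29 (-1.75 to -0.84), on 62 and 133 UMIs, and Furin, the protease that releases both ligands, at -0.85 (-1.26 to -0.45), on 87 and 138 UMIs. The higher ones were Bcl2a1b at 1.04 (0.40 to 1.71) and Ikbkg at 0.70 (-0.019 to 1.45), which is named after its values were seen and whose interval includes 0. Furin was lower in CD8 T cells as well, at -0.62 (-0.90 to -0.34), where 1 of 38 genes was higher and 1 lower beside 2.02% and 5.29% of all genes. It was level in monocytes, at 71.8 CPM in Glutoborin and 70.3 CPM in Vehicle. In CD4 T cells 0 of 36 genes were higher and 1 lower, beside 2.33% and 2.62%, and that gene was Tnfaip3 at -0.82 (-1.03 to -0.62), with 56.2 and 99.4 CPM. In regulatory T cells 0 of 21 were past 1.5-fold in either direction, beside 2.54% higher and 4.79% lower of all genes.

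**Figure D5:**
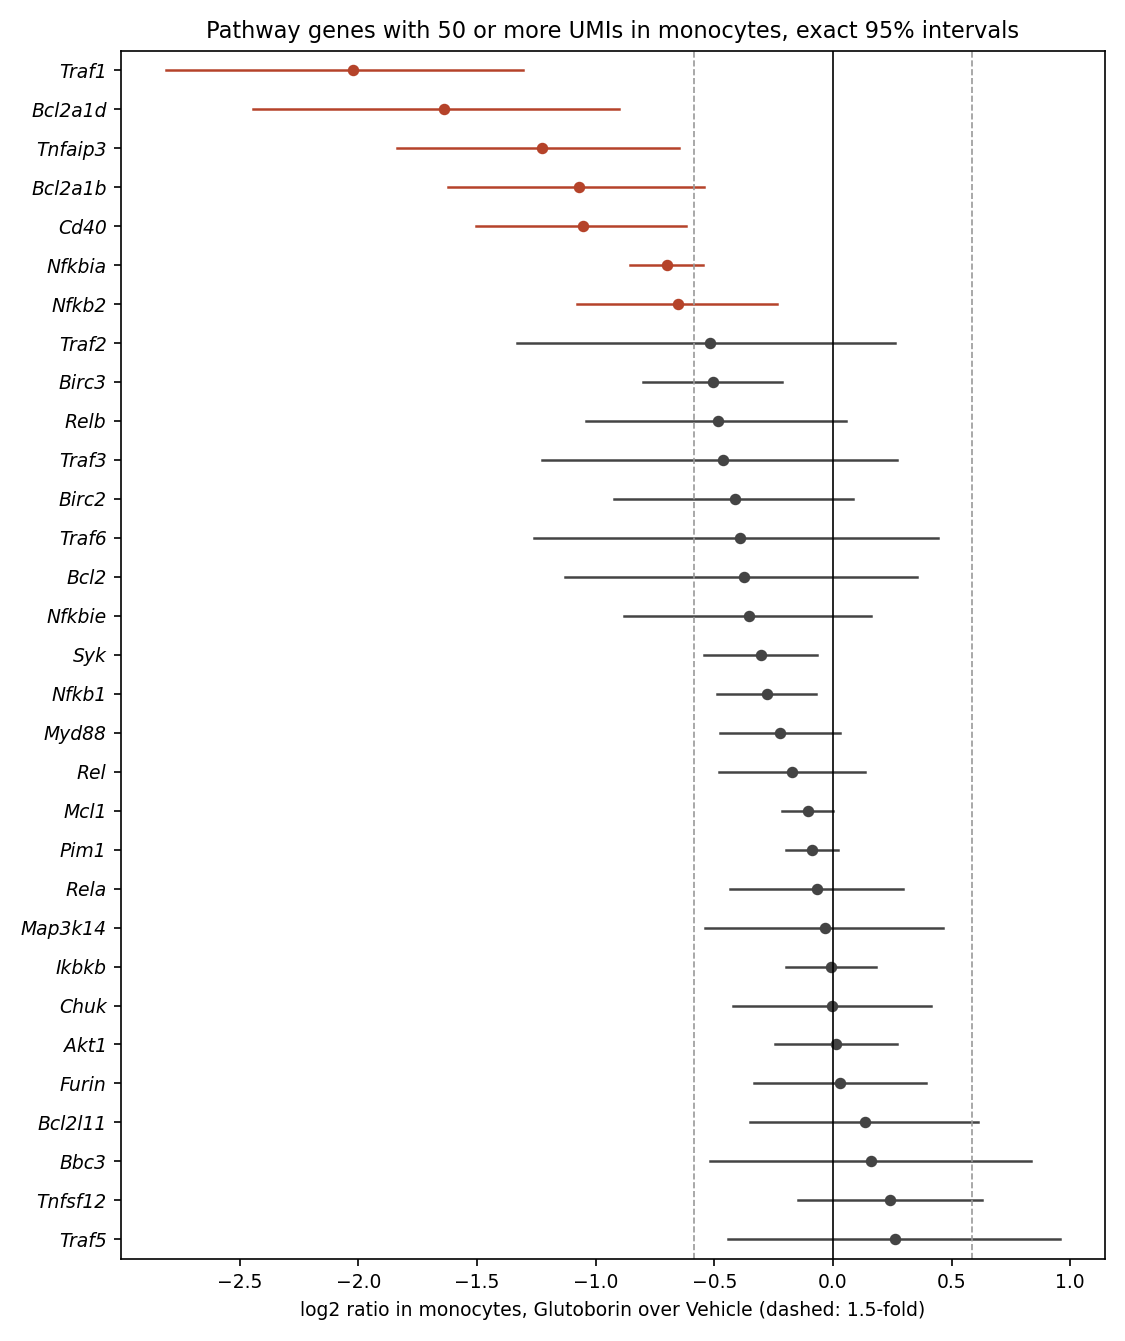
Log2 ratio of Glutoborin over Vehicle in monocytes (horizontal axis) for the 31 pathway genes with at least 50 UMIs there, ordered from the lowest, with exact 95% intervals as bars and dashed lines at 1.5-fold. The 7 genes in red, from Traf1 at -2.02 to Nfkb2 at -0.65, are past 1.5-fold on the lower side, and none is past it on the higher side.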

How the data were processed

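The deposited tables give UMI counts, whole numbers without normalization, for each gene in each barcode. Per the file headers the program was Cell Ranger 6.1.2. The submitters' processing notes list Cell Ranger 6.0.1 instead, beside Seurat 4.3.0 and mm10. Barcodes with at least 300 genes, 500 UMIs and under 10% mitochondrial UMIs were kept. Doublets called by Scrublet in scanpy 1.11.5 were left out: 347 (3.75%) in Glutoborin and 195 (2.92%) in Vehicle. Both libraries were clustered together (2000 variable genes, 30 components, 15 neighbours, Leiden resolution 1.5), with the members, their pathway and response gene lists left out of the variable genes. B, T and myeloid clusters were clustered again. Names rest on markers, with limits set after the clusters were seen, and stand for cells resembling a type. UMIs were summed per class and library. Poisson, ratio and Clopper-Pearson intervals are exact and cover counting error only. Ratios need 100 cells in each library and 50 UMIs over both. Pathway genes were named where past 1.5-fold with an interval excluding no change, and Ikbkg in NK cells was added after its values were seen. Other pathway genes are given to mark a range or role, also chosen with values known. The members and lists were chosen with earlier results of these data known. Gene positions come from GENCODE M21 on GRCm38, which held 99.6% of the feature identifiers. The summing and fold rule were tested on simulated data. Within-group replicates do not exist here. A result that rests on 1 marker gene by name is not reported here.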

Additional observations from a re-analysis of the deposited data

Results flagged for a closer look

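Cells in clusters that stayed unnamed, mostly because they carried core genes of more than 1 lineage, are left out of the report and described here. There Tnfrsf13b stood at 68.3 CPM in 260 Glutoborin cells, above 45.5 CPM in 263 Vehicle cells, a log2 ratio of 0.59 (0.20 to 0.98), while Tnfrsf13c stood at 60.7 and 57.0 CPM. The largest part of its UMIs lay in a myeloid cluster led by B cell genes such as Ebf1 and Ms4a1, with 53 Tnfrsf13b UMIs in 34 Glutoborin cells and 33 in 38 Vehicle cells. The part of mixed droplets in this value was not tested. In barcodes removed at 10% mitochondrial UMIs the levels were 105 and 95.2 CPM for Tnfrsf13b and 181 and 165 CPM for Tnfrsf13c, with overlapping intervals.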

How the results depend on the processing

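No paired analysis was possible because each group is 1 library. Of 76 alternative values of the 10 member ratios, 73 had the sign of the main value. Within subsets, the Tnfrsf13b ratio of B cells (log2 0.21) was 0.062 in marginal zone-like, 0.39 in B-1-like and 0.067 in Vpreb3-led cells, and the Tnfrsf13c ratio (0.14) was -0.17, 0.049 and 0.020 in B-1-like, Vpreb3-led and Srm-led cells. As a mean per cell, Tnfrsf13c in B cells stood at 358 CPM in Glutoborin and 323 CPM in Vehicle. Pathway genes higher in B cells numbered 2 with at least 20 UMIs or with 1 UMI in each library and 4 at 1.2-fold, where 1 was lower. In monocytes 17 were lower at 1.2-fold and 1 was higher with 1 UMI in each library. Bcl2a1d in monocytes reversed to 0.070 in cells taken by marker UMIs alone, and the cause was not tested. The removal of the 10 monocytes richest in neutrophil markers was added after the data were seen. Tnfsf13b, Tnfrsf17 and all classes under 100 cells are limited by counts, and no setting stands in for a second animal per group.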
